A study of Homo sapiens with 15 samples.

Results

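DNA methylation was examined at the 9 human genes that write, copy or erase it: the maintenance genes DNMT1, UHRF1 and UHRF2, the de novo methyltransferase genes DNMT3A, DNMT3B and DNMT3L, and the eraser genes TET1, TET2 and TET3. The genes were chosen by name, and their CpGs were those between the annotated ends of each gene or within 1 kb of any of its annotated transcript starts (GENCODE release 44, hg38), which gave 13608 of the 29456478 CpG positions measured. The measurements were whole-genome bisulfite sequencing of HCT116, a human colorectal carcinoma cell line, carrying a doxycycline (dox)-inducible short hairpin RNA (shRNA) against the 3′UTR of UHRF1 or of DNMT1. There were 3 shUHRF1 populations, each expanded from 1 clone (Cl.3, Cl.6 and Cl.9), and 2 shDNMT1 bulk populations (R1 and R2). Each was sequenced at Baseline (day 14 without dox), Knockdown (day 14 with 10 ng/mL dox) and Recovery (day 28, after 14 days with dox and 14 days without), for 15 libraries in 6 groups. No library at day 28 without dox was analysed here, so Recovery was set against the Baseline of day 14. All cells carried an shRNA cassette and no line without one was analysed here. The shRNA coincided with the clonal or bulk state, and no count table held both shRNAs, so these cannot be told apart in any difference between shUHRF1 and shDNMT1. Of the clones, Cl.3 and Cl.6 shared 1 table and Cl.9 had its own, so the table and the clone cannot be told apart where Cl.9 differs from the others. Whether UHRF1 and DNMT1 were depleted was not checked, as only methylation was analysed.

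After replication, UHRF1 binds DNA whose new strand lacks methylation and, through ubiquitin placed on histone H3, recruits DNMT1, which copies the methylation of the parent strand. UHRF2 is its paralog. DNMT3A and DNMT3B set new methylation, with DNMT3L as a cofactor that has no catalytic activity, and TET1, TET2 and TET3 oxidise 5-methylcytosine as a step towards its removal. Most active genes have a CpG island at the start that is free of methylation, while their bodies are highly methylated.

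The libraries held 317670080 to 593644411 reads at CpGs, with a mean of 10.6 to 21.0 reads per CpG of the 9 genes, and the deepest were those of Cl.9, the clone with the lowest mC at Knockdown; the part of depth in this was not tested. The methylation level (mC) is the share of reads that stayed C. Over the 9 genes together it was 84.6% to 89.4% at Baseline in the 5 populations. At Knockdown it was 76.5% in Cl.3, 71.7% in Cl.6, 56.7% in Cl.9, 48.0% in R1 and 46.6% in R2. The clones thus differed widely and in the same order as over all CpGs (62.5%, 57.3% and 42.7%), whereas the bulk populations were alike. At Recovery the clones had 83.9%, 82.3% and 72.3% and the bulk populations 86.0% and 85.5%. The populations are the replicates, and for the bulk populations nothing in the labels says whether R1 and R2 came from separate transductions.

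Each gene had 1 main start window, the stretch within 1 kb of its canonical transcript start merged with the overlapping windows of its other transcripts. The tests were by the quasi-likelihood method of edgeR, with methylated and unmethylated reads as the counts and the population as a block, and a region was called at a Benjamini-Hochberg adjusted p under 0.05 over all regions of protein-coding genes. At Knockdown mC was called lower in 8 of the 9 main start windows in shUHRF1, against 94.7% of 19301 such windows, and in all 9 in shDNMT1, against 96.8%. In points, the losses were of modest size in the members: the median change was -5.62 percentage points in shUHRF1, against -10.3 over all main start windows, and -10.3 in shDNMT1, against -15.1. Most members also had less to lose. The median Baseline mC over all main start windows was 25.1% (Cl.9) to 32.6% (Cl.6). All members but DNMT3L and TET2 began below that median in every population. The part of this in the smaller losses was not tested. With these backgrounds a call at Knockdown says little of a single gene, and the size and the recovery of each window are given instead.

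Among the maintenance genes, the start of UHRF1 lost most. Its main start window (chr19:4908430-4911375, 219 CpGs) began, in the order Cl.3, Cl.6 and Cl.9, at 19.9%, 20.1% and 14.9%. It had 8.94%, 7.09% and 4.34% at Knockdown, and 10.2%, 9.81% and 7.60% at Recovery. The bulk populations had 16.4% and 14.9%, then 3.97% and 4.58%, then 17.5% and 11.8%. No Knockdown or Recovery value of a clone reached the lowest Baseline value of the clones, whereas R1 ended above its Baseline and R2 somewhat below it. The mean change at Knockdown was -11.5 points in shUHRF1 (SD 1.31, n = 3, adjusted p = 8.13e-10) and -11.4 in shDNMT1 (SD 1.54, n = 2, adjusted p = 6.15e-10).

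The main start window of DNMT1 (chr19:10193626-10196135, 116 CpGs) was lower and moved less. It had 13.3%, 12.1% and 8.81% at Baseline, 7.41%, 8.55% and 5.16% at Knockdown and 11.3%, 9.56% and 7.39% at Recovery in Cl.3, Cl.6 and Cl.9. In the bulk populations it had 7.25% and 8.36%, then 4.82% and 4.55%, then 7.27% and 9.30%. Knockdown values lay below all Baseline values within each shRNA. The mean change was -4.34 points in shUHRF1 (SD 1.3, n = 3, adjusted p = 0.00135) and -3.12 in shDNMT1 (SD 0.975, n = 2, adjusted p = 0.00701), and the call in shDNMT1 was lost without R2 (adjusted p = 0.172). The UHRF2 window (chr9:6412151-6415058, 209 CpGs) had 10.7%, 13.3% and 11%, then 8.79%, 8.97% and 10.5%, then 16.8%, 10.4% and 7.29% in Cl.3, Cl.6 and Cl.9. The values of R1 and R2 were 7.65% and 8.22%, then 3.88% and 2.99%, then 10.1% and 9.70%. In summed reads the clones had no common direction at Recovery, while over CpGs with 5 reads in every library the Recovery change was -3.15 points (SD 0.239, n = 3). The change in shUHRF1 did not pass the test (-2.28 points, SD 1.93, n = 3, adjusted p = 0.153), while mC in shDNMT1 fell by 4.5 points (SD 1.02, n = 2, adjusted p = 4.99e-05).

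Of the de novo genes, DNMT3L had a main start window that was mostly methylated. Its main start window (chr21:44260882-44263216, 53 CpGs, the smallest number of the 9) had 75.5%, 75.5% and 70.1% at Baseline, 57.3%, 46.7% and 24.1% at Knockdown and 69.1%, 64.0% and 39.2% at Recovery in Cl.3, Cl.6 and Cl.9. For R1 and R2 the values were 76.2% and 79.6%, then 26.5% and 41.6%, then 76.1% and 79.0%. Both shRNAs lost methylation there, and the clones ended below their Baseline. These levels describe the part of the window inside the gene: the 16 CpGs with 5 reads in all 15 libraries lay 144 to 998 bp downstream of the start, none of them had a mean Baseline mC under 10%, and upstream coverage was sparse. In the 250 bp just upstream (11 CpGs) Baseline mC was 13.6% to 34.5% in the 4 populations with 20 reads or more. The mean change at Knockdown was -31.0 points in shUHRF1 (SD 14.0, n = 3, adjusted p = 5.02e-09), a loss exceeded by 2.43% of all main start windows, and -43.9 in shDNMT1 (SD 8.34, n = 2, adjusted p = 5.73e-11).

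DNMT3B (chr20:32761385-32763762, 162 CpGs) ran from 8.76% to 15.4% at Baseline and from 3.39% to 7.11% at Knockdown in the clones, with a mean change of -5.62 points (SD 2.55, n = 3, adjusted p = 2.49e-05). In the bulk populations it fell by 6.08 points (SD 0.0311, n = 2, adjusted p = 9.97e-07), a call lost at 500 bp (0.0522). DNMT3A (chr2:25340925-25343590, 279 CpGs) ran from 9.99% to 18.3% at Baseline and from 6.54% to 15.5% at Knockdown in the clones, so these groups overlapped. Its mean change in shUHRF1 was -4.06 points (SD 1.67, n = 3, adjusted p = 0.0248), a call lost without Cl.6 (adjusted p = 0.133), without Cl.9 (0.0800) and at 500 bp (0.0761). In shDNMT1 it fell by 6.22 points (SD 1.55, n = 2, adjusted p = 0.000378), a call lost without R2 (0.0612).

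Among the eraser genes, the TET1 window (chr10:68559337-68561337, 104 CpGs) changed most in the clones. In Cl.3, Cl.6 and Cl.9 it had 20.6%, 25.4% and 16.2% at Baseline, 9.39%, 5.99% and 5.63% at Knockdown, and 8.70%, 8.40% and 7.02% at Recovery. R1 and R2 had 13.4% and 15.9%, then 3.41% and 5.43%, then 14.0% and 12.4%. After dox was withdrawn Cl.6 and Cl.9 rose slightly and Cl.3 fell slightly. Each clone stayed well below its Baseline, while R1 and R2 rose to 14.0% and 12.4%. The mean change at Knockdown was -13.7 points in shUHRF1 (SD 4.91, n = 3, adjusted p = 5.49e-09) and -10.3 in shDNMT1 (SD 0.368, n = 2, adjusted p = 1.44e-07). In windows of 500 bp, which leave out the flanks farther out, neither call held (adjusted p of 0.0702 and 0.0580).

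TET2 (chr4:105144875-105148457, 158 CpGs) differed between clones. It had 22.9%, 36.1% and 22% at Baseline, 22.9%, 20.5% and 16.2% at Knockdown and 25.1%, 22.4% and 18.2% at Recovery in Cl.3, Cl.6 and Cl.9. The bulk populations had 26.9% and 23.9%, then 9.36% and 8.89%, then 30.2% and 28.9%. The clone values overlapped and rested on Cl.6: the mean change of -7.14 points (SD 7.91, n = 3, adjusted p = 0.0149) was not called without that clone (adjusted p = 0.328), with limma (0.0525) or at 500 bp (0.0751). In shDNMT1 it was -16.2 points (SD 1.80, n = 2, adjusted p = 4.51e-08). TET3 (chr2:73983910-73987526, 257 CpGs) ran from 17.0% to 26.4% at Baseline and from 10.6% to 24.5% at Knockdown in the clones, a mean change of -4.46 points with a p just under the threshold (SD 2.30, n = 3, adjusted p = 0.0482). Leaving out Cl.3, Cl.9, R1 or R2 put it above the threshold (adjusted p of 0.0839, 0.291, 0.0627 and 0.0629), as did limma (0.121) and 500 bp (0.0920). In shDNMT1 the TET3 window fell by 11.5 points (SD 7.03, n = 2, adjusted p = 2.42e-05), a call lost without R2 (0.0927) and at 500 bp (0.840).

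**Figure D1:**
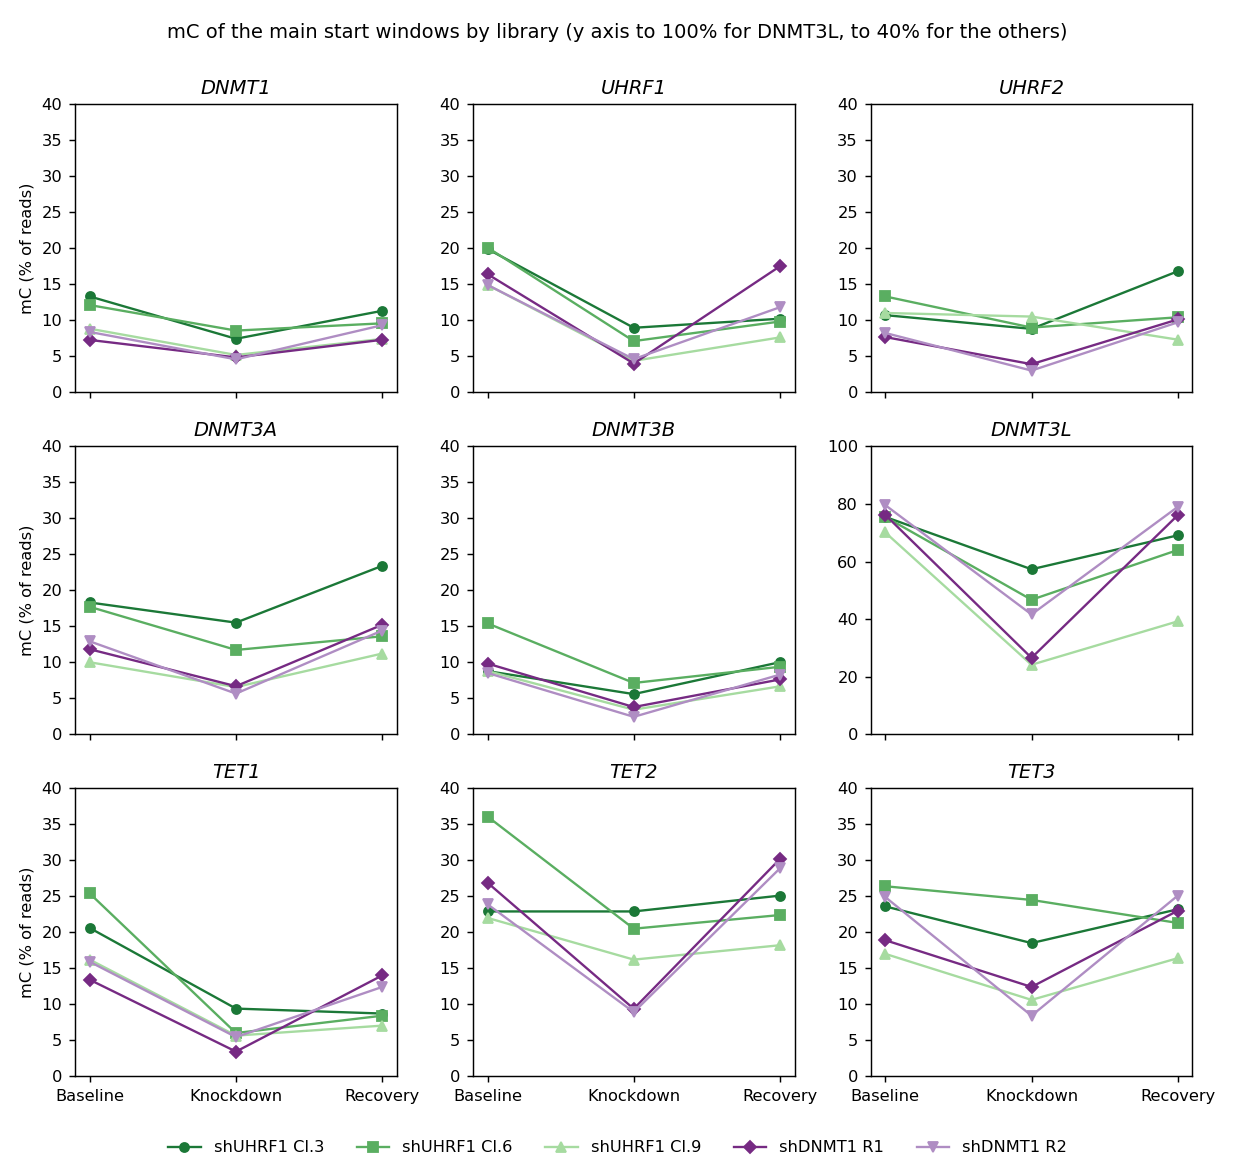
mC (% of reads) of the main start window of each gene at Baseline, Knockdown and Recovery, with 1 line per population (greens, the shUHRF1 clones, and purples, the shDNMT1 bulk populations). The y axis runs to 40% except for DNMT3L, where it runs to 100%; the TET1 clones stay near 7% to 9% at Recovery while R1 and R2 are at 14.0% and 12.4%.

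After dox was withdrawn, the start windows of the clones recovered to differing degrees. In shUHRF1, mC at Recovery was called below Baseline in 3 of the 9 main start windows, UHRF1, DNMT3L and TET1, against 79.0% of all main start windows. It was -9.08 points from Baseline in UHRF1 (SD 1.61, n = 3, adjusted p = 8.06e-06), -12.7 in TET1 (SD 3.96, n = 3, adjusted p = 4.60e-07) and -16.2 in DNMT3L (SD 13, n = 3, adjusted p = 0.000553). The call of DNMT3L was lost without Cl.9 (adjusted p = 0.0566), and those of TET1 and DNMT3L at windows of 500 bp (0.0575 and 0.174), while that of UHRF1 held in each alternative. The other 6 windows lay between -5.12 points (TET2) and 0.722 points (DNMT3A) and did not pass. The sign of DNMT3A depended on the CpGs used: the mean change was -11.1 points (SD 9.38, n = 3) over CpGs with 5 reads in every library and 9.91 points (SD 14.8, n = 3) over CpGs with 5 reads in the given library. Without Cl.3, UHRF2, DNMT3B and TET2 passed as well (adjusted p of 0.0374, 0.0205 and 0.00765). The count of 3 also rested on CpGs that were not covered in every library: on CpGs with 5 reads in all 15, edgeR called UHRF2 (adjusted p = 1.35e-08), DNMT3B (0.0113), TET2 (0.00583) and, at the threshold, TET3 (0.05) as well, and on CpGs with 10 reads in all 15 it called all 9. At these settings 89.9% and 87.9% of all start windows, main and other, were called lower, against 88.5% of them over all reads. The share among main start windows alone is not given here for these settings. The low count is thus no sign that the other windows had returned to Baseline.

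In shDNMT1 no main start window was called lower at Recovery than at Baseline, against 0.0% of all of them. At an unadjusted p under 0.05 there were 541 main start windows and no member. Since the fit took 1 spread from clones and bulk populations together, this is no sign that every window had fully returned. From Knockdown to Recovery all 9 were called higher in shDNMT1, against 96.4%. In shUHRF1 4 were called higher, UHRF1, DNMT3A, DNMT3B and DNMT3L, against 32.3%. The TET1 window moved by 1.04 points over the same interval in shUHRF1 (SD 1.58, n = 3, adjusted p = 0.410). The rise of UHRF1 was 2.42 points (SD 1.02, n = 3, adjusted p = 0.0353) and was not called without Cl.6, Cl.9, R1 or R2 (0.0980, 0.251, 0.0542 and 0.0557), and the rises of DNMT3A and DNMT3B were not called without Cl.9 (0.124 and 0.0568). The rise of DNMT3L was 14.7 points (SD 2.74, n = 3, adjusted p = 0.00382).

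The difference between the shRNAs was tested as an interaction. As in all these tests, the scale was log2 odds of methylated against unmethylated reads, while sizes are given in points. On that scale a few points weigh more near 0% than at middle levels, so calls need not follow the order in points. In odds, the Knockdown change was called larger in shDNMT1 in 2 of the 9 main start windows, against 24.6% of all. These were TET2 with a difference of -9.11 points (adjusted p = 0.0129) and UHRF2 with one of -2.22 (adjusted p = 0.0443). TET3, with -4.46 points in shUHRF1 and -11.5 in shDNMT1, was not called. The call of TET2 was lost without R1 or R2 (0.129 and 0.130), and that of UHRF2 without Cl.3, Cl.9, R1 or R2 (0.0534, 0.0753, 0.110 and 0.330) or on CpGs with 5 reads in all 15 libraries (0.777). The Recovery change was called less negative in shDNMT1 in 3, against 40.2%: UHRF1 (8.08 points, adjusted p = 0.0162), DNMT3L (15.9 points, adjusted p = 0.0452) and TET1 (11.2 points, adjusted p = 0.00559). Without R1 none of these held (0.218, 0.218 and 0.131), and without R2 the call of TET1 did (0.0469) and those of UHRF1 (0.0654) and DNMT3L (0.207) did not. DNMT3L was also not called without Cl.6 (0.0610) or Cl.9 (0.241). None of the 5 held without the population block (adjusted p of 0.227 to 0.384).

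At UHRF1 and TET1 the loss lay in the flanks of an unmethylated core. Such flanks were seen at other genes too, though not on every side of a start. In every 250-bp bin from 250 bp upstream to 500 bp downstream of the canonical start of TET1, mC was at most 5.48% in all libraries. The bin 750 to 1000 bp downstream (12 CpGs) had, in Cl.3, Cl.6 and Cl.9, 77.7%, 75% and 67.2% at Baseline, 34.4%, 9.23% and 12.4% at Knockdown and 22.6%, 20.4% and 13.6% at Recovery. For R1 and R2 the values were 70.3% in both, then 12.3% and 21.7%, then 63.7% and 69.4%. The edge of the unmethylated stretch thus lay farther into TET1 in the clones at Recovery than at Baseline, and in the bulk populations it was near its Baseline place. At UHRF1 the bin 500 to 250 bp upstream (10 CpGs) had 78.8%, 98.7% and 98.5% at Baseline, 56.9%, 49.1% and 21.0% at Knockdown and 50%, 38.6% and 39.2% at Recovery in the clones. It had 80.9% and 86.7%, then 15.7% and 28.4%, then 93.7% and 79.8% in R1 and R2. The bin 1750 to 2000 bp downstream of the start of UHRF2 (2 CpGs) had 100%, 90.9% and 78.3% at Baseline, 43.6%, 45.5% and 10.3% at Knockdown and 34.6%, 39.5% and 8.33% at Recovery in the clones. Its upstream flank differed. The bin 500 to 250 bp upstream (19 CpGs) had 41.9%, 58.4% and 36.6% at Baseline and 72.8%, 46.5% and 47.5% at Recovery. The bin 750 to 500 bp upstream (26 CpGs) had 100%, 96.7% and 100%, and then 99.1%, 98.1% and 96.8%. At DNMT3B the bin 1250 to 1500 bp downstream (9 CpGs) had 18.6%, 56.1% and 46.3% at Baseline and 2.80%, 23.6% and 3.90% at Recovery. A stretch within UHRF1, 1750 to 2000 bp downstream (8 CpGs), had 53.3%, 25.0% and 37.1% at Baseline and 4.81%, 3.03% and 5.37% at Recovery in the clones, against 38.8% and 35.5%, and 37.1% and 29.4%, in R1 and R2.

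**Figure D2:**
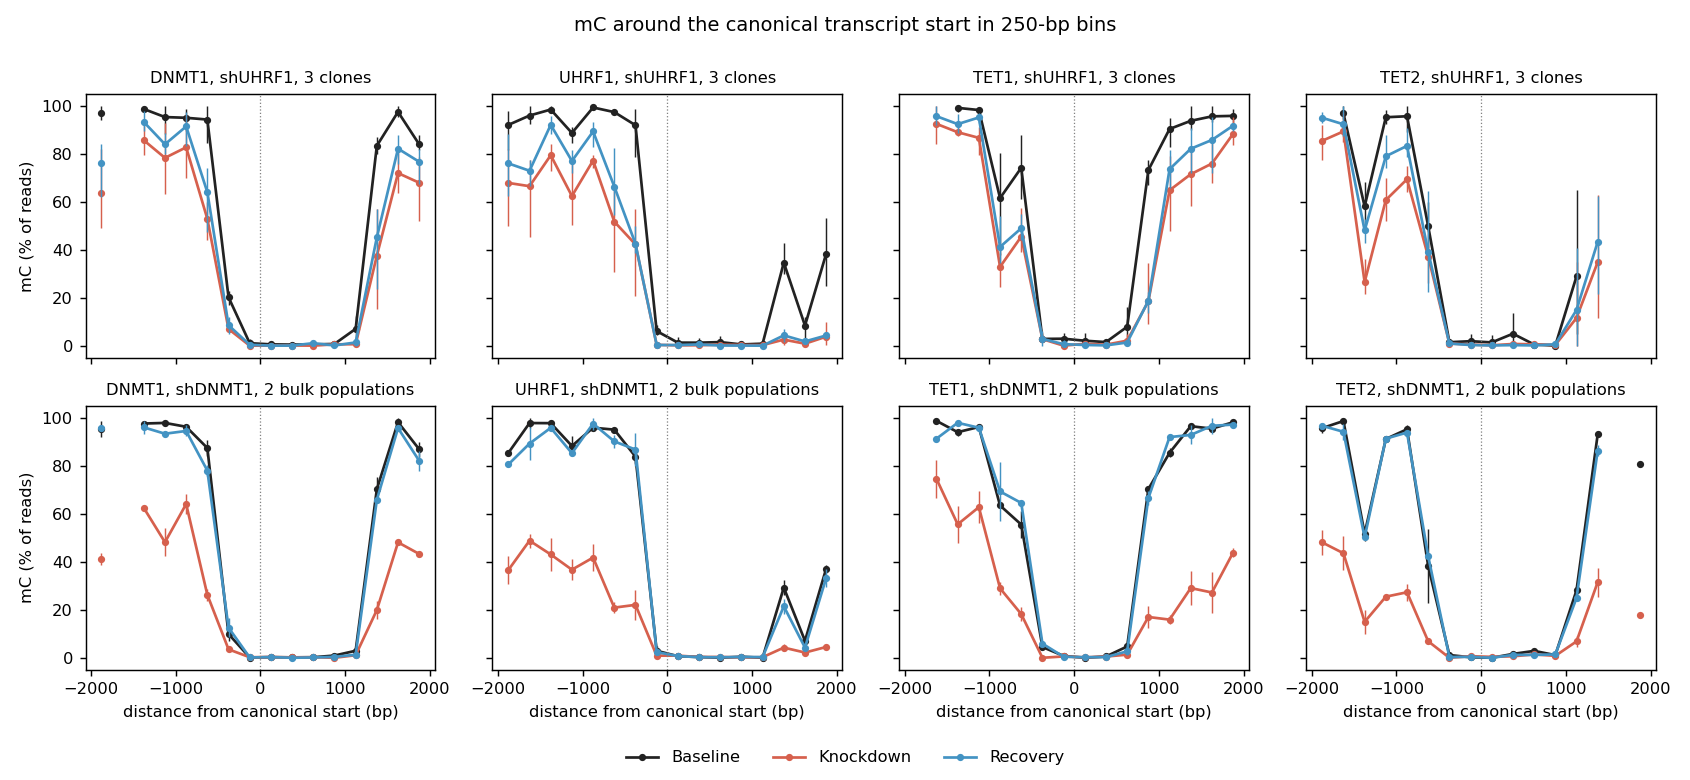
mC (% of reads) in 250-bp bins by distance from the canonical start (bp, positive into the gene) of DNMT1, UHRF1, TET1 and TET2, as the mean of the 3 clones (top) and of the 2 bulk populations (bottom), with bars from the lowest to the highest population. Bins under 20 reads are left out; the Recovery line follows the Knockdown line beside the core of UHRF1 and TET1 in the clones and the Baseline line in the bulk populations.

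Single CpGs that all 15 libraries covered with 5 reads or more were also sorted by their Baseline mC. The sorting itself fixes that loss can be seen in the high class and hardly in the low one, so the values are a description. CpGs of the main start windows with a mean Baseline mC of at least 50% numbered 24 in UHRF1, 13 in TET1, 22 in TET2, 30 in TET3, 15 in DNMT3L, 10 in DNMT3A, 9 in DNMT1, 9 in DNMT3B and 3 in UHRF2. Those of UHRF1 went from 89.2%, 78.9% and 88.4% to 47.8%, 32.8% and 23.6% and then to 54.6%, 40.8% and 38.3% in Cl.3, Cl.6 and Cl.9. Those of TET1 went from 75%, 89.9% and 83.9% to 43.2%, 29.4% and 27.6% and then to 40.2%, 37.6% and 28.2%. In the bulk populations the CpGs of TET1 went from 75.3% and 79.7% to 21.2% and 26.9% and then to 82.3% and 77.4%. The TET2 flanks regained more in the clones, from 65.4%, 61.5% and 49.9% at Knockdown to 77.0%, 75% and 63.2% at Recovery, with 89.4%, 92.8% and 91.7% at Baseline. CpGs with a mean Baseline mC under 10% numbered 11 to 99 in the windows that had any, and mC over them was at most 7.89% in any library. That was DNMT3B in Cl.6 at Baseline, against 0.983% in Cl.3, 3.10% in Cl.9 and 1.15% in Cl.6 at Knockdown. At TET2 Cl.6 had 3.32% at Baseline, against 0.431% and 0.298%. Cl.6 was the highest clone at Baseline in DNMT1, UHRF2, TET1 and TET3 too, and the lowest in UHRF1 and DNMT3A. In UHRF1 the median CpG of this class lay 1052 bp downstream, and in DNMT3A the class lay from -804 to -665 bp of the start. Nearer the start Cl.6 was the highest in some bins there too. The bin 0 to 250 bp downstream had 0%, 3.85% and 0.427% in UHRF1 and 3.45%, 3.89% and 0.484% in DNMT3A, in Cl.3, Cl.6 and Cl.9. In the bin 750 to 1000 bp downstream Cl.6 was highest in UHRF1 (1.72%) but at 0% in DNMT3A. The part of these Baseline values in the falls of Cl.6 was not tested.

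The values of a window also depended on which of its CpGs were used, and the cause was not tested. In DNMT3A the window held 2.50 to 9.83 reads per CpG, and only 22 of its 279 CpGs had 5 reads in every library. On those CpGs alone, a level chosen after the data were seen, mC was lower at Knockdown in all 9 windows and every population. Over CpGs with 5 reads in the given library instead, UHRF2 had a mean change of 0.247 points in shUHRF1 (SD 3.89, n = 3) and ran from -7.59 to 1.07 in shDNMT1. CpGs covered in every library are no even sample of a window: the 22 of DNMT3A all lay from -1651 to -665 bp of the start, and those of UHRF1 had 36.2% at Baseline in Cl.3, against 19.9% for its whole window, so the changes on them are not those of whole windows. The mean change in shUHRF1 was -3.14 points for UHRF2 (SD 0.468, n = 3, 105 CpGs), -15.9 for DNMT3A (SD 10.0), -10.2 for TET2 (SD 2.34, 73 CpGs), -21.8 for UHRF1 (SD 6.24, 61 CpGs) and -22.9 for TET1 (SD 7.44, 35 CpGs). With the edgeR test on these CpGs the UHRF2 window was also called in shUHRF1 at Knockdown (adjusted p = 5.54e-09). At Recovery the same CpGs stood at -22.1 points from Baseline in TET1 (SD 4.65, n = 3) and at -18.0 in UHRF1 (SD 4.27, n = 3) in the clones, and at 1.40 (SD 1.27, n = 2) and -3.25 (SD 0.778, n = 2) in the bulk populations.

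With the starts of all other transcripts included, the 9 genes had 37 start windows, of which 36 passed the filter of 5 CpGs and 50 reads in every library. The window that did not pass was the other start of DNMT3L (chr21:44250238-44252238), where none of the 55 CpGs had a read in any library. At Knockdown 35 of 36 were called lower in shUHRF1 (97.7% of 53398 start windows) and 36 in shDNMT1 (98.6%). At Recovery 28 were called below Baseline in shUHRF1 (88.5%) and 0 in shDNMT1 (0.0%, with 2058 windows and 1 of the members at an unadjusted p under 0.05). From Knockdown to Recovery 30 were called higher in shUHRF1 (62.2%) and 36 in shDNMT1 (98.4%). The Knockdown change was called larger in shDNMT1 in 20 (32.9%), and the Recovery change less negative in 24 (50.7%).

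Most of the other start windows lay inside highly methylated gene bodies and behaved like them. The largest change in shDNMT1 was at a start within TET3 (chr2:74001713-74003713, 98 CpGs), which in Cl.3, Cl.6 and Cl.9 had 97.9%, 97.1% and 96.3% at Baseline and 85.3%, 79.0% and 54.4% at Knockdown. R1 and R2 had 97.3% and 96.3%, then 29.5% and 34.0%, then 95.3% and 92.3%. The bulk populations fell by 65.1 points (SD 3.93, n = 2, adjusted p = 4.25e-20) and the clones had a mean change of -24.3 (SD 15.6, n = 3, adjusted p = 1.85e-14), a difference of -40.8 points (adjusted p = 0.00586). Without R2, and without the population block, none of the 36 windows was called for this difference. The share of all start windows in those fits is not given here. A window of UHRF2 (chr9:6496049-6499352, 17 CpGs) had the largest change of the other start windows of the members in shUHRF1, -31.4 points (SD 13.8, n = 3, adjusted p = 2.44e-16). The farthest start of DNMT1 (chr19:10230273-10232286, 141 CpGs), which overlaps S1PR2, was low, at 17.6% to 24.8% at Baseline and 6.63% to 18.5% at Knockdown.

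Gene bodies, the gene span without its start windows, were highly methylated at Baseline in all 9 genes, from 83.5% (DNMT3L, Cl.9) to 98.1% (UHRF2, Cl.6). All 9 were called lower at Knockdown in both shRNAs, against 99.8% of 18496 gene bodies in each. The median change over the 9 was -21.6 points in shUHRF1, against -21.1 over all bodies, and -41.5 in shDNMT1, against -40.4. The bodies of these genes thus lost about as much as gene bodies in general.

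The body of UHRF1 (1530 CpGs) had 92.5%, 92.3% and 89.7% at Baseline, 79.0%, 72.7% and 55.7% at Knockdown and 86.5%, 84.1% and 74.2% at Recovery in Cl.3, Cl.6 and Cl.9. The bulk populations had 90.3% and 90.1%, then 43.1% and 42.0%, then 89.2% and 88.5%. Its mean change in shDNMT1, -47.6 points (SD 0.669, n = 2, adjusted p = 8.64e-39), was the largest of the 9 bodies, and 8.33% of all bodies lost more. In shUHRF1 its mean change was -22.3 (SD 10.5, n = 3, adjusted p = 5.35e-23). The body of DNMT1 (1152 CpGs) had 92.7%, 94.1% and 92.2%, then 80.5%, 75.1% and 58.7%, then 86.7%, 84.8% and 74.8% in the clones. For R1 and R2 the values were 92.5% and 92.3%, then 48.6% and 48.3%, then 91.2% and 91.3%.

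At the other end, the body of TET1 (1758 CpGs) lost least in shUHRF1. It had 94.2%, 95.3% and 93.0%, then 85.2%, 79.6% and 68.3%, then 90.6%, 89.3% and 82.1% in the clones. The mean change was -16.5 points (SD 7.85, n = 3, adjusted p = 3.23e-22), and 89.4% of all bodies had a more negative one. So TET1 had the largest fall among the low-methylated start windows of the 9 genes and the smallest among their bodies in shUHRF1, an order that was not tested. For R1 and R2 the body had 93.6% in both, then 55.7% and 54.7%, then 93.1% and 93.3%. The other bodies changed by -18.2 (UHRF2 and TET2) to -22.6 points (DNMT3A) in shUHRF1. In shDNMT1 that of DNMT1 changed by -43.9 points and the rest by -37.9 (TET2) to -41.9 (DNMT3A). In shUHRF1 the SD between clones was 7.85 to 10.9 points. All bodies were measured in the same clones, so this SD is no measure of the gaps between genes, which were not tested.

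**Figure D3:**
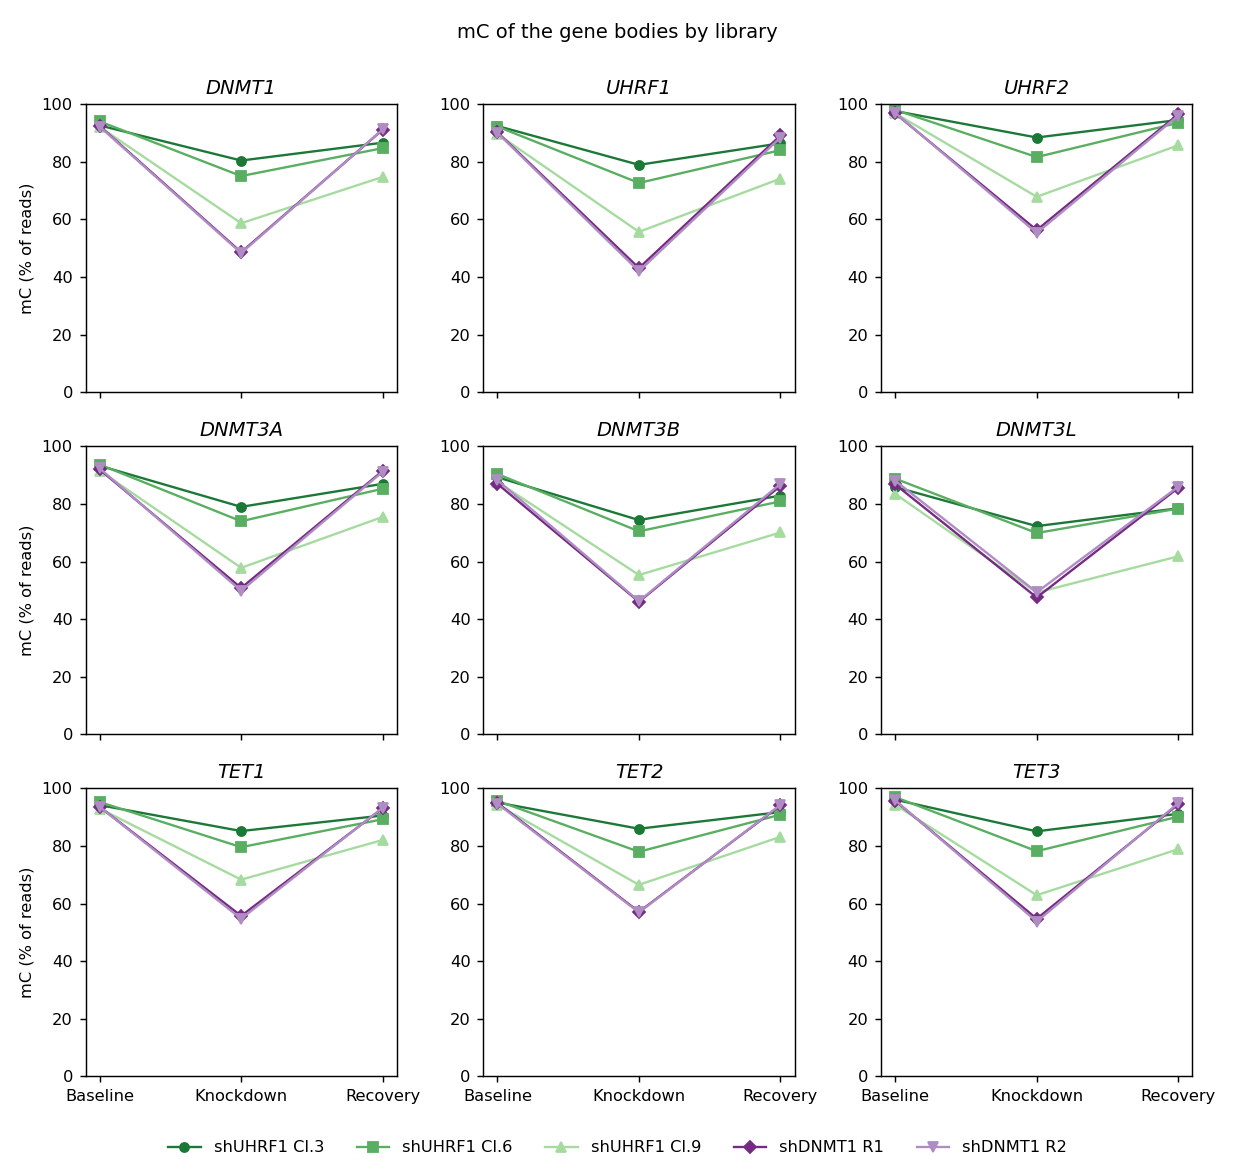
mC (% of reads) of the body of each gene at Baseline, Knockdown and Recovery, with 1 line per population (greens, the shUHRF1 clones, and purples, the shDNMT1 bulk populations). In each panel the clones spread at Knockdown, with Cl.9 lowest and Cl.3 highest, and the bulk populations are lowest there, except in DNMT3L (49.2% in Cl.9, 49.3% in R2), and return to within 3 points of Baseline, for example to 91.2% and 91.3% in DNMT1.

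At Recovery all 9 bodies were called below Baseline in shUHRF1, against 98.5%, from -6.23 points in UHRF2 (SD 4.29, n = 3) to -13.2 in DNMT3L (SD 7.52, n = 3). In shDNMT1 0 were called, against 0.0% (with 318 bodies and no member at an unadjusted p under 0.05), although the means were negative in all 9, from -0.370 points in TET1 to -1.59 in DNMT3L. When only the 6 bulk libraries were fitted, an alternative chosen after the data were seen, 6 of the 9 were called lower, against 39.3% of all bodies: DNMT1 (adjusted p = 0.00330), UHRF1 (0.00291), UHRF2 (0.0126), DNMT3A (0.00997), TET2 (0.0472) and TET3 (0.000195). From Knockdown to Recovery all 9 bodies were called higher in shUHRF1 (85.7%) and in shDNMT1 (99.8%), and none of those calls in shUHRF1 held without the population block. The Knockdown change was called larger in shDNMT1 in all 9 (81.6%) and the Recovery change less negative in all 9 (88.9%), and without R1 or without R2 none of the 9 genes kept either call.

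The share of the loss that returned differed between genes and populations. In UHRF2 66.8%, 72.3% and 61.7% of the body's loss was regained at Recovery in Cl.3, Cl.6 and Cl.9, and in DNMT3L 45.4%, 45.0% and 36.8%. The medians over all bodies that had lost at least 5 points were 49.9%, 56.1% and 47.3%. UHRF1, UHRF2, DNMT3A and the 3 TET genes lay above these medians in all 3 clones, DNMT3L lay below them in all 3, and DNMT1 and DNMT3B lay on both sides. In R1 and R2 the 9 bodies regained 94.8% to 99.3%, with medians of 97.3% and 97.4% over all bodies.

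Single CpGs put the populations in the same order at Knockdown as mC over the 9 genes did. Taking CpGs whose Baseline mC was 0.85 or above and that had 5 reads in both libraries as highly methylated, those whose mC fell by 0.3 or more were counted as hypomethylated. In the 9 genes together they were 12.2%, 20.9% and 45.7% in Cl.3, Cl.6 and Cl.9 at Knockdown, against 15.1%, 25.9% and 51.2% over all protein-coding gene spans. In R1 and R2 they were 75.6% and 78.1%, against 76.3% and 77.7%. UHRF1 had the highest share in the bulk populations, 88.5% and 91.1%. TET1 had 9.01%, 14.1% and 33.4% in the clones and UHRF2 6.92%, 16.1% and 37.9%, and these were the lowest values of the 9 genes in each clone. At Recovery the 9 genes together had 4.39%, 5.68% and 16.7% in the clones, against 6.58%, 8.94% and 23.7% over all gene spans. R1 and R2 had 0.244% and 0.217%, against 0.589% and 0.549%. For scale, with the Baseline of another clone in place of the Knockdown library, 0.672% to 1.39% of these CpGs would have been counted in the clones, and with that of the other bulk population 0.102% and 0.171% in R1 and R2. For DNMT3L, which had 150 to 174 such CpGs, the clones gave 4.67% to 11.5% in this way, which covers its Recovery share of 9.20% in Cl.3. These shares have no test, since CpGs of a gene are not replicates.

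**Figure D4:**
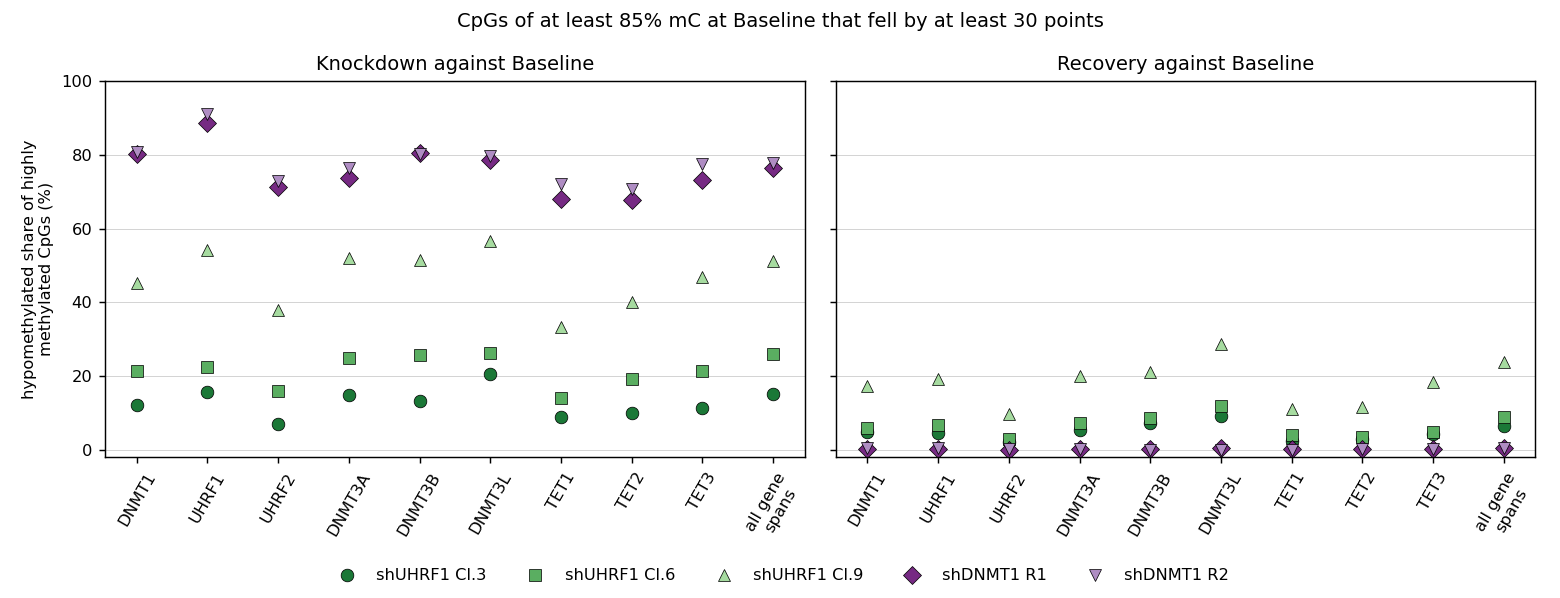
Share (%) of highly methylated CpGs that were hypomethylated at Knockdown (left) and at Recovery (right) against Baseline, for each gene and for all protein-coding gene spans, with 1 point per population. At Knockdown UHRF1 is highest in R1 and R2 (88.5% and 91.1%), and at Recovery the bulk populations lie under 1% in every gene.

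Low-density CpGs, those with the nearest CpG at least 20 bp away, lost more than high-density CpGs in every population and in each of the 9 genes at Knockdown. Over the 9 genes the mean change was -15.6, -23.0 and -38.1 points at low density and -6.98, -11.7 and -19.0 at high density in Cl.3, Cl.6 and Cl.9. In R1 and R2 it was -45.2 and -46.0 at low density and -32.3 and -33.0 at high density. The gap was thus -8.57, -11.3 and -19.1 points for Cl.3, Cl.6 and Cl.9 and -12.9 and -13 for R1 and R2, against -7.04, -8.70, -13.4, -8.03 and -8.06 over all protein-coding gene spans. This excess over all gene spans was not seen in R1 and R2 among highly methylated CpGs, where the gap was -7.96, -10.7, -16.1, -8.37 and -7.66 points in Cl.3, Cl.6, Cl.9, R1 and R2, against -7.65, -9.74, -15.0, -8.53 and -8.25 over all gene spans. High-density CpGs include the unmethylated starts: Baseline mC of the 9 genes was 77.5% to 85.1% at high density and 91.9% to 93.6% at low density. Among highly methylated CpGs the flanking base went with the loss too. At low density with A or T on both sides the mean change in the 9 genes was -21.3, -29.7, -48.5, -51.8 and -52.2 points in Cl.3, Cl.6, Cl.9, R1 and R2, and at low density with C or G on a side it was -14.2, -21.5, -36.0, -45.8 and -46.5. At high density the changes were -11.4, -17.4, -31.3, -43.8 and -45.7 with A or T on both sides and -7.44, -12.1, -21.6, -38.0 and -39.3 with C or G on a side.

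The sequences below show both ends of this range. Of the CpGs with Baseline mC of at least 85% in all 5 populations and 5 reads in all 15 libraries, the one with the largest and the one with the smallest mean fall of a gene are given with 30 bases of the plus strand of hg38, with the CpG in capitals. They were picked by the readout, so they are a description. The CpGs that fell most are shown for 5 of the 9 genes and lay in introns of DNMT1 (chr19:10150396-10150425), TET2 (chr4:105148853-105148882) and TET3 (chr2:74094875-74094904), in an intron of UHRF2 (chr9:6450851-6450880) and in an exon of DNMT3B (chr20:32798767-32798796).
DNMT1 largest fall: gctctcccccaggtCGtgtggctaggtcct
UHRF2 largest fall: aatcccagttatttCGaattggaaatggta
DNMT3B largest fall: gctgagagacctggCGaattgccagctcct
TET2 largest fall: atttctccataagtCGaatttccaaaacta
TET3 largest fall: agatgcctgctagaCGtgcaggtggagatg
The nearest CpG to these was 62, 77, 21, 24 and 52 bp away, and their mean falls over the 5 populations are the mean changes -78.1, -75.7, -79.6, -80.1 and -74.6 points. Of those not shown, the CpG of UHRF1 had a mean change of -75.2 points with its nearest CpG only 9 bp away, and that of DNMT3A -75.6 points at 40 bp. The CpG of DNMT3B went from 93.3%, 100% and 96.0% to 18.2%, 16.7% and 9.68% in Cl.3, Cl.6 and Cl.9 and stood at 15.8%, 31.2% and 13% at Recovery, against 94.1% and 91.7% in R1 and R2 after 31.2% and 15.8% at Knockdown. At 5 to 38 reads per library each of these values is coarse.

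The CpGs that fell least had close neighbours. Those shown lay in introns of DNMT3B (chr20:32784149-32784178) and TET1 (chr10:68652713-68652742) and in a coding exon of TET3 (chr2:74100476-74100505).
DNMT3B smallest fall: tcaggtgatccaccCGcgtcggcctcccaa
TET1 smallest fall: gagacaggctttgtCGccccggctggattg
TET3 smallest fall: aagtacagcggcaaCGcggtggtggagagc
The nearest CpG to these was 2, 5 and 2 bp away, and the mean changes were -1.84, -0.833 and 2.99 points. The CpG of TET3 had 92.9% and 89.5% in R1 and R2 at Knockdown, where the body of the gene was at 54.7% and 53.7%. Over all 9 genes the nearest CpG was 9 to 77 bp away for the CpGs that fell most and 2 to 12 bp for those that fell least.

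The deposited domain lists gave the same genes another measure. Highly methylated domains (HMDs) were regions of mean mC of at least 0.8 outside the domains called as partially methylated, low-methylated or unmethylated. Since they rest on mC they are no independent evidence of its loss. At Baseline HMDs covered 91.2% to 99.2% of 8 of the gene spans and 57.4% to 61.8% of DNMT3L. At Knockdown they covered 0% of all 9 genes in Cl.9, R1 and R2. In Cl.3 they still covered 97.9% of TET1, 98.3% of TET2, 99.1% of TET3 and 98% of UHRF2. They covered 89.6% of DNMT3B, 89.1% of UHRF1, 71.6% of DNMT1, 63.1% of DNMT3A and 0% of DNMT3L there. In Cl.6 they covered 93.5% of TET1, 60.4% of DNMT1, 55.7% of UHRF2 and 41.6% of TET3. The rest in Cl.6 were UHRF1 (27.0%), DNMT3A (16.3%), TET2 (15.1%), DNMT3B (6.27%) and DNMT3L (0%). TET1, whose body had the smallest mean change in shUHRF1, kept most of its domain in both of these clones, as did UHRF2 and DNMT1. TET2 did not in Cl.6, although its body changed by only -18.2 points in shUHRF1.

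**Figure D5:**
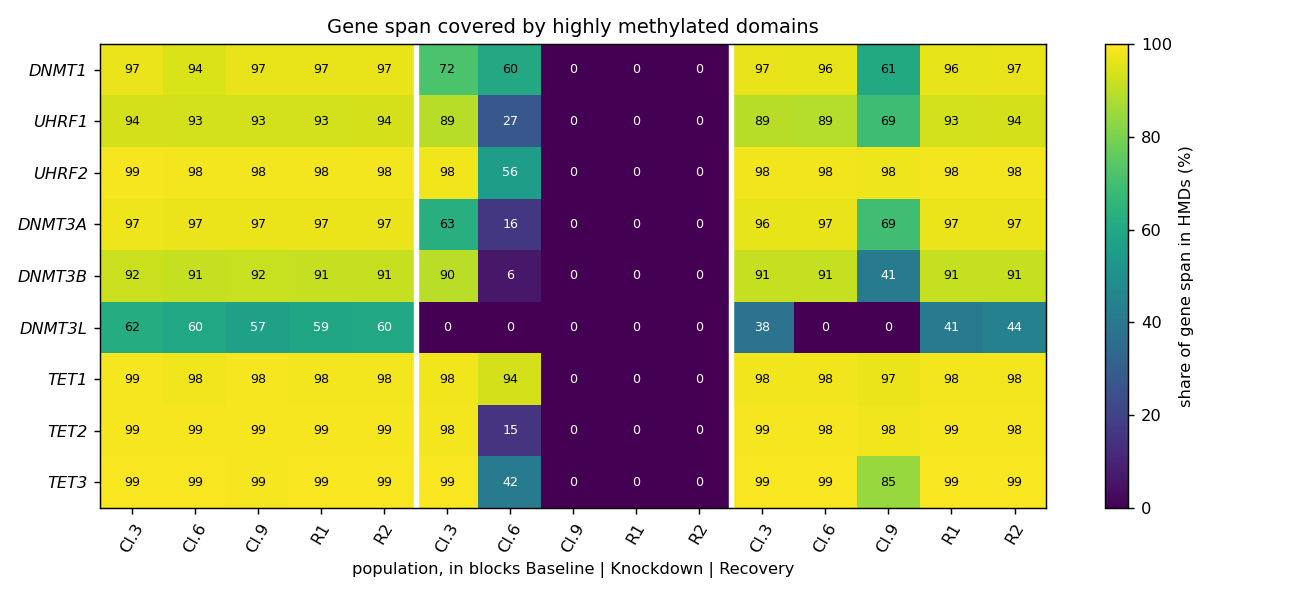
Share (%) of each gene span covered by highly methylated domains (color and number) in the 15 libraries, ordered Baseline, Knockdown and Recovery. All genes are at 0% in Cl.9, R1 and R2 at Knockdown, and at Recovery DNMT3L is at 0% in Cl.6 and Cl.9 while TET1 is at 97.0% or more in every population.

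At Recovery the domains over DNMT3L had returned to 38.1% in Cl.3, to 0% in Cl.6 and Cl.9, and to 40.7% and 43.9% in R1 and R2. In Cl.9 they covered 41.2% of DNMT3B, 60.9% of DNMT1, 69.1% of UHRF1 and 69.4% of DNMT3A, and 97.0% or more of TET1, UHRF2 and TET2. The canonical start lay in an unmethylated region in all 15 libraries for 8 of the genes. That of DNMT3L lay in an HMD at Baseline in all 5 populations and in a partially methylated domain at Knockdown. In Cl.9, R1 and R2 it then lay in a called unmethylated region as well.

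Exonic and intronic CpGs of the bodies did not keep 1 order, either in level or in loss. In R1, exonic CpGs went from 96.9% at Baseline to 61.4% at Knockdown in TET3 and intronic CpGs from 95.5% to 53.5%. In UHRF1 the exonic CpGs, which began higher, went from 96.0% to 46.1% in R1 and the intronic ones from 89.9% to 42.8%. Its exons thus lost more in R1, and in R2 as well, but less in the 3 clones, where in Cl.6 exonic CpGs went from 96.3% to 83.8% and intronic CpGs from 92.0% to 71.9%. In Cl.9 the losses were nearly equal, from 93.2% to 59.6% in exons and from 89.5% to 55.4% in introns. Of the exonic CpGs of UHRF1 10.7% were of low density, against 37.7% of the intronic ones, and the part of this was not tested.

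The gene bodies closest to UHRF1 in mC over the 15 libraries, by Euclidean distance, were BICRA (3.58 points), SPINT2 (3.74) and SEPTIN9 (4.52), and those closest to DNMT1 were CTNS (2.09), ATP2A3 (2.36) and PHC2 (2.38). The median distance over 18495 bodies was 25.5 points from UHRF1 and 20.4 from DNMT1. These distances describe the level over libraries that share a population and a depth.

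A list of 37 further genes of the pathway, of which 36 were annotated as protein-coding, is given by its counts. It holds, among others, the partners of DNMT1 and UHRF1 (USP7, PCNA, LIG1), methyl-CpG binding proteins, and enzymes that make the methyl donor. Of its 137 start windows 136 were called lower at Knockdown in shUHRF1 and 137 in shDNMT1, against 97.7% and 98.6% of all start windows, and at Recovery 121 and 0, against 88.5% and 0.0%. Of its 34 gene bodies 34 were called lower at Knockdown in both, against 99.8%, and 32 and 0 at Recovery, against 98.5% and 0.0%. The start windows with the largest mean change at Knockdown over the 5 populations were in CXXC5 (-39.0 points), LIG1 (-38.5), the ligase that joins replicated strands, and USP7 (-37.6), a deubiquitinase that binds DNMT1. Their Baseline mC was 66.4% to 79.5%, 93.2% to 96.3% and 91.5% to 98.1%, so none of them was an unmethylated start. The bodies were those of MAT2A (-45.2), which makes the methyl donor S-adenosylmethionine, MBD4 (-37.2), a glycosylase that binds methylated CpGs, and DMAP1 (-34.9), a DNMT1-associated protein.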

How the data were processed

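The authors aligned the bisulfite reads to hg38 with Meth10X, and they deposited 3 tables holding, for each CpG and library, the count of reads that stayed C and the count of all covering reads. The deposited lists of partially methylated domains, low-methylated and unmethylated regions were made by the authors with MethylSeekR, and their highly methylated domains as the complement (bedtools v2.25.0) with a mean mC of at least 0.8. All per-sample columns were used. Reads were summed over regions from GENCODE release 44. Regions holding 5 CpGs or more, with 50 reads or more in each library, were tested over all protein-coding genes with edgeR 4.0.16 (R 4.3.3) on methylated and unmethylated counts, in 1 model of the 15 libraries with the population as a block, and p-values were adjusted by the Benjamini-Hochberg method. Mean changes are in percentage points with the SD over populations, while the tests and their p-values are on the scale of log2 odds. Python 3.11.15, numpy 2.4.6, pandas 2.3.3 and matplotlib 3.10.9 served for the rest.

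The pairing comes from each population having been sampled at all 3 stages. Deviations from the group mean at Knockdown or Recovery correlated with those of the same clone at Baseline at 0.396 to 0.619, each clone best with itself, and at -0.0147 and 0.0214 in the bulk populations. No 2 libraries of a group agreed within sampling noise. P-values set the mean change against how far the changes vary between populations, once each population's own level is set aside. Clones and bulk populations shared 1 estimate of this spread, although they were not equally alike. At Knockdown the chi-square per gene body was at least 101 between 2 clones and 5.11 between R1 and R2. A lack of calls in shDNMT1 is thus no sign of a lack of change.

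The members and the lists were chosen with earlier results of these data known. Named in the text are the 9 genes, the 3 start windows and 3 bodies of the pathway list with the largest mean loss at Knockdown among those called with both shRNAs, the 3 bodies closest to UHRF1 and to DNMT1, and, for some members, the CpG that fell most or the one that fell least. Some of these CpGs are not reported here. Single regions named beyond this, such as the other start windows of TET3 and UHRF2, were chosen after their values were seen. Alternatives were limma 3.58.1, no block, other coverage minimums, 500-bp windows, protein-coding transcripts only, and leaving out each population.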

Additional observations from a re-analysis of the deposited data

Results flagged for a closer look

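The change from Baseline differed between shDNMT1 and shUHRF1 in 5 main start windows and in the bodies of all 9 genes, by the interaction term of the edgeR test. Over all genes this was so in 24.6% (Knockdown) and 40.2% (Recovery) of main start windows and in 81.6% and 88.9% of bodies. Without R1, without R2 or without the population block, 0 of the 9 bodies was called at either stage. The shares of all bodies at these settings are not given here, so this is no result about the 9 genes. The differences are given as shDNMT1 minus shUHRF1, in percentage points of mC, while the tests were on log2 odds. They cannot be told apart from differences between bulk and clonal populations.

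At Knockdown the main start windows of UHRF2 (-2.22) and TET2 (-9.11) differed. In gene bodies the differences at Knockdown were -22.4 in DNMT1, -25.3 in UHRF1, -23.0 in UHRF2, -19.3 in DNMT3A, -19.1 in DNMT3B, -16.7 in DNMT3L, -21.9 in TET1, -19.7 in TET2 and -21.2 in TET3, with adjusted p of 0.00047 (UHRF1) to 0.0058 (DNMT3B) in edgeR. All 5 populations had lower mC at Knockdown in each body, and both bulk populations changed more than any clone.

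At Recovery the main start windows of UHRF1 (8.08), DNMT3L (15.9) and TET1 (11.2) differed. In gene bodies the differences at Recovery were 9.76 in DNMT1, 8.52 in UHRF1, 5.58 in UHRF2, 9.43 in DNMT3A, 10.2 in DNMT3B, 11.6 in DNMT3L, 6.44 in TET1, 5.73 in TET2 and 7.90 in TET3, with adjusted p of 0.000272 (UHRF2) to 0.0107 (DNMT3L) in edgeR. Each clone ended below its Baseline in every body.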

How the results depend on the processing

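Over all 36 start windows and over the 9 gene bodies, the counts at Knockdown and those of shUHRF1 at Recovery against Baseline stayed within 1.5 times, except with protein-coding transcripts only. Over the 9 main start windows alone, the Recovery count of 3 was 7 on CpGs with 5 reads in every library, 9 on those with 10 reads, 6 without Cl.3, 2 without Cl.9, 2 without the replicate block and 1 at 500 bp. The shares of all main start windows at these settings are not given here, so these counts are no result about the 9 genes. The tests between shRNAs depended most on the design. Without the replicate block, 0 of 36 start windows and 0 of 9 gene bodies were called for shUHRF1 from Knockdown to Recovery, for the Knockdown difference between shRNAs and for the Recovery difference, against 30, 20 and 24 windows and 9 bodies each with it. Leaving out 1 population gave 0 to 27 windows for the Knockdown difference (0 without R2, 3 without R1, 11 without Cl.3 and 13 without Cl.6) and 6 to 28 for the Recovery difference (6 without R1 or R2, 12 without Cl.9), and 0 to 9 bodies for both, with 0 without R1 or R2. In those last fits the lone bulk population was assumed to vary like the clones. The shares of all regions without the block or without 1 population are not given here. The counts at those settings are thus no result about these genes. The Knockdown difference was called in 5 of 31 windows on CpGs with 10 reads in every library (10.1% of all start windows) and in 3 of 44 windows of 500 bp (9.77%). With protein-coding transcripts only there were 18 windows, of which 17 and 18 were called at Knockdown in shUHRF1 and shDNMT1 (95.9% and 97.3% of all), 13 at Recovery in shUHRF1 (83.9%), 11 and 17 from Knockdown to Recovery (43.7% and 96.9%), and 7 and 6 for the differences between shRNAs (23.7% and 43.4%). With the bulk libraries alone, chosen after the data were seen, 6 bodies were called lower at Recovery in shDNMT1.

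The share of hypomethylated CpGs in shDNMT1, 76.8% as the mean of R1 and R2, was 90.2% at a loss of 0.2 and 38.8% at 0.5. In Cl.3, Cl.6 and Cl.9, with 12.2%, 20.9% and 45.7%, it was 25.2%, 39.0% and 63.2% at 0.2 and 3.20%, 5.50% and 20.5% at 0.5. The density gap in shDNMT1, -12.9 points, was -9.95 with 35 bp as the limit, -12.2 with 10 reads and -8.02 among highly methylated CpGs. Direction reversed in 2 single results: the Recovery change of the DNMT3A start window in shUHRF1 was -0.81 on the log2 odds scale on CpGs with 10 reads in every library (0.06 over all reads, and between -0.56 and 0.31 without a call in the other alternatives), and the rise of the TET3 start window from Knockdown to Recovery in shDNMT1 was -0.32 in a 500-bp window (1.47 in the main window). The causes were not tested. Of the other single tests 1604 kept their call, 155 lost it and 30 gained it. At DNMT3A, with as few as 2.50 reads per CpG in the start window, depth limits what can be seen.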
